A study of Mus musculus with 16 samples.

Results

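Mitochondria in kidney tubule cells divide, fuse and are removed by autophagy, and 10 genes that carry out or regulate these steps were followed in mouse kidney cortex after ischemia-reperfusion injury (IRI). Of the 10, 5 act in fission (Dnm1l, Mff, Fis1, Mief1 and Mief2), 2 in fusion of the outer membrane (Mfn1 and Mfn2) and 3 in mitophagy (Pink1, Bnip3l and Fundc1). They were chosen by function, through the Ensembl identifier of each symbol. No cutoff on a measured value was used, but earlier results of these data were known when they were chosen. They are 10 of 56980 gene identifiers in the count table, and all 10 were among the 17972 genes that passed the filter on low counts.

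RNA was sequenced from the kidney cortex of male C57Bl/6J mice with loxP-flanked Degs1, the gene of dihydroceramide desaturase 1, which makes ceramide from dihydroceramide. There were 4 groups of 4 libraries: Degs1iGKO after IRI, Degs1fl/fl after IRI, Degs1iGKO after sham surgery and Degs1fl/fl after sham surgery. Degs1iGKO mice carried Rosa26-CreERT2, a tamoxifen-activated Cre expressed in all tissues, so the deletion was global and not confined to the kidney tubule, and Degs1fl/fl littermates were the controls. Mice of both genotypes received 3 mg of tamoxifen on 5 days at 9 weeks of age and were operated on at 12 weeks; IRI was a bilateral clamp of 28 min, and cortex was collected 24 h after surgery.

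In fission, the dynamin-related GTPase DRP1, the product of Dnm1l, is recruited from the cytosol by receptors in the outer membrane and constricts the organelle. Fusion of outer membranes is carried out by the mitofusins, and mitophagy delivers damaged mitochondria to autophagosomes either through ubiquitin marks that the kinase PINK1 sets or through receptors that bind autophagosome proteins directly. Proximal tubule cells are rich in mitochondria, and a shift towards fragmented mitochondria is a known feature of ischemic tubular injury. Much of this machinery is controlled at the protein level, by phosphorylation, recruitment and cleavage, which RNA counts do not measure.

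The upstream sequences of Mfn1, Mfn2 and Mief1 are shown because these were the only members with an unadjusted p below 0.05 after IRI. Each is the 250 bases before the most upstream start of the gene in the RefSeq promoter table of GRCm38.p6, 5′ to 3′ on the strand of the gene. They lie at chr3:32529232-32529481 (+) for Mfn1, chr4:147904910-147905159 (-) for Mfn2 and chr15:80233830-80234079 (+) for Mief1. Capitals mark the ETS-type sequence CCGGAAGT that the factor GABP, also called NRF2, binds.

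Mfn1: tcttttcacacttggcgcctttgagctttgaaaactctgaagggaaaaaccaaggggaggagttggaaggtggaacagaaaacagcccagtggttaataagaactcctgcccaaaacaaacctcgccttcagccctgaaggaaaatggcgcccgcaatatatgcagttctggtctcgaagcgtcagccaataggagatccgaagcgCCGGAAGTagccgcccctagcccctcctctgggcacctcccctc

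Mfn2: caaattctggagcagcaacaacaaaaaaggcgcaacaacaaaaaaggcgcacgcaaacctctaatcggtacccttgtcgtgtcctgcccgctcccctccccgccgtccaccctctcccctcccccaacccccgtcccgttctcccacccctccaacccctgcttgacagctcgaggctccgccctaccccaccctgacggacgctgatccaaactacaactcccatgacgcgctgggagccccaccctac

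Mief1: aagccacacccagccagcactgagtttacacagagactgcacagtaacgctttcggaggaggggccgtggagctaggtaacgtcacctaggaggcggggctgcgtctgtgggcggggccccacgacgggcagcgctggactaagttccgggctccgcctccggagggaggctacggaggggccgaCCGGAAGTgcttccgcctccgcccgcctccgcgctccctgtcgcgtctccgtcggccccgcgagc

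Mfn1 and Mief1 hold CCGGAAGT in this window and Mfn2 does not. Of the 9 members in the promoter table, 3 hold it on either strand (Fis1, Mief1 and Mfn1), against 2.92% of all 27025 promoters in the table. The NRF1 core GCATGCGC was in 0 of 9 members and 2.31% of promoters, and the ERR half-site AAGGTCA in 0 of 9 and 4.04%. The E-box CACGTG, which TFEB and its relatives bind, was in Mief2 and in 6.04% of promoters. The HIF core ACGTG, which every CACGTG contains, was in Mief2 and in 16.5%. These matches describe the letters only. The motifs were picked with the sequences in view. Mfn1 and Mief1, which share CCGGAAGT, had uncalled fold changes of opposite sign after IRI. A link between the motif and expression was not tested.

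Libraries held 12704273 to 18816343 counted reads, of which 10341 to 18004 fell on the 10 genes. Degs1 itself was at 44.7 to 59.8 CPM (read counts scaled to library size, with TMM factors) in Degs1iGKO IRI libraries and 88.8 to 133 CPM in Degs1fl/fl IRI libraries, and at 40.2 to 71.7 CPM in Degs1iGKO Sham and 84.0 to 113 CPM in Degs1fl/fl Sham libraries. All 16 proximal tubule markers passed the filter, with a summed level of 10959 to 37687 CPM over the libraries. Degs1iGKO Sham 4 had 0.443% of its counts on mitochondrially encoded genes, against 2.05% to 6.48% in the other libraries. Degs1fl/fl IRI 1 had 101 CPM of Havcr1, the gene of the injury marker KIM-1, against 710 to 1666 CPM in the other Degs1fl/fl IRI libraries, and 3760 CPM of the proximal tubule transporter gene Slc34a1 against 729 to 2038 CPM. Degs1iGKO Sham 2 had 126 CPM of Havcr1, against 13.2 to 21.7 CPM in the other Degs1iGKO Sham libraries. Degs1iGKO IRI libraries had 28.0 to 122 CPM.

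The 10 genes differed far more from one another than between groups. Per kilobase of annotated exon, the level in Degs1fl/fl Sham kidneys was highest for Pink1 (89.8 ± 11.8 CPM per kb; SD, n = 4, as for each value here), followed by Fis1 (48.2 ± 6.75) and Mfn2 (40.9 ± 1.67). Bnip3l (19.8 ± 2.41), Mfn1 (19.5 ± 2.08) and Dnm1l (16.0 ± 2.72) formed a middle group, and Fundc1 (8.71 ± 0.814), Mff (7.89 ± 0.598), Mief1 (7.68 ± 0.632) and Mief2 (6.15 ± 0.681) were lowest. The place of a gene depends on the length used. All annotated exons add up to 9757 bases for Mff and 8106 for Mief1, against 3918 and 5148 in the longest transcript. Within 1 SD of each mean, Fis1 overlapped Mfn2, the 3 genes of the middle group overlapped each other, and so did Fundc1, Mff and Mief1. Pink1, Fis1 and Mfn2 held the top 3 places in that order in all 4 groups.

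**Figure D1:**
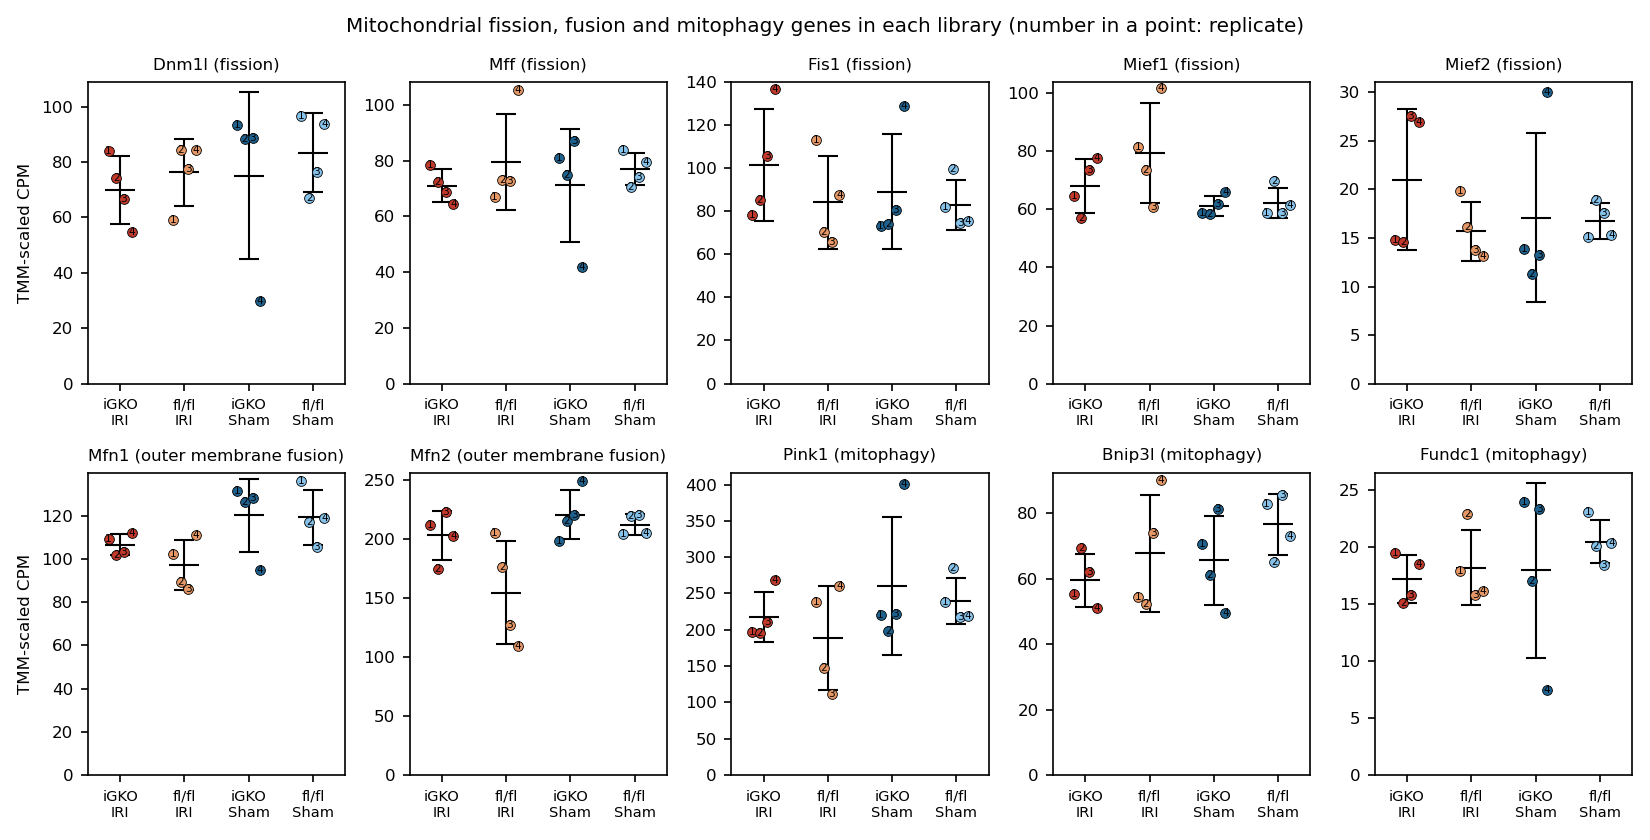
TMM-scaled CPM of each gene on the y axis (from 0) in the 16 libraries, by group on the x axis; points are libraries, the number in a point is the replicate, and the lines are the mean and SD of 4 libraries. Mfn2 in Degs1fl/fl IRI 3 and 4 (128 and 110 CPM) lies below every other library, and Degs1iGKO Sham 4 stands apart for Dnm1l, Fis1, Mief2, Mfn1 and Pink1.

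None of the 10 genes passed the adjusted threshold for IRI against sham in either genotype. In Degs1fl/fl kidneys, edgeR's quasi-likelihood test with Benjamini-Hochberg adjustment over all genes called 0 of the 10 at an adjusted p of 0.05, while it called 15.5% of all genes tested. The unadjusted p was below 0.05 for 3 of the 10 (Mfn2, Mief1 and Mfn1), against 30.7% of all genes. DESeq2 called 0 of the 10 and 17.6% of the genes it gave an adjusted p. The CPM ranges of IRI and sham libraries did not overlap for 0 of the 10 and for 19.5% of genes tested. Fold changes of the 10 ran from -0.46 to 0.35 (log2), with a median of -0.15 against 0.01 over all genes tested, and 7 of 10 were negative. With all libraries in the fit, all 10 of the 95% intervals excluded a 2-fold change in either direction. They reached from -0.89 to 0.67 at their widest. Without Degs1fl/fl IRI 1, Pink1 had -0.47 ± 0.28 (log2, SE), which does not exclude a 2-fold fall.

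Mfn2, which fuses outer membranes and also tethers mitochondria to the endoplasmic reticulum, had the largest fold change. It stood at 205, 176, 128 and 110 CPM in Degs1fl/fl IRI libraries 1 to 4, against 205, 219.7, 220.2 and 205 CPM in Degs1fl/fl Sham libraries. Libraries 3 and 4 of the injured group were far below the sham range, library 2 was less far below it and Degs1fl/fl IRI 1 was at its lower edge. The means were 155 ± 43.7 CPM after IRI and 212 ± 8.66 CPM after sham (SD, n = 4 each). On the log2 scale the difference was -0.46 ± 0.17 (SE), and the adjusted p was 0.0771 in edgeR and 0.0539 in DESeq2. Without Degs1fl/fl IRI 1, the log2 fold change was -0.62 with an edgeR adjusted p of 0.00980, and calls over all genes went up to 4335 against 2779 with all libraries. An offset for GC content of transcripts, added after the data were seen, gave -0.46 with an edgeR adjusted p of 0.0281, and 3844 calls over all genes. Other alternatives brought no call. The edgeR adjusted p was 0.161 with only the compared groups in the fit and 0.152 without the filter on low counts. It was 0.106 with the replicate number as a block and 0.0752 with DESeq2 size factors. With 1 library left out it reached up to 0.203, and the log2 fold change came as near to 0 as -0.32.

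In the same comparison the summed level of 16 proximal tubule markers was 10959 to 26725 CPM in Degs1fl/fl IRI libraries and 32141 to 37687 CPM in Degs1fl/fl Sham libraries. The summed level of 8 neutrophil markers was 25.1 to 225 CPM after IRI and 5.45 to 12.1 CPM after sham, where Ly6g was at 0. By edgeR's adjusted p, 9 of 16 proximal tubule markers fell and 7 of the 7 neutrophil markers tested rose. The falls were not confined to the proximal tubule. In the thick ascending limb list 4 of 7 fell, and in the distal and connecting tubule list 3 of 6. Of collecting duct markers 2 of 9 fell, of endothelial markers 3 of 8 and of podocyte markers 0 of 6. The part of these marker changes in the Mfn2 values was not tested. In bulk cortex, fewer tubule cells and less RNA per cell cannot be told apart.

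Mfn1, the other mitofusin, was at 102, 89.2, 86.0 and 111 CPM in Degs1fl/fl IRI libraries and 136, 117, 105 and 119 CPM in Degs1fl/fl Sham libraries. Of the injured libraries, only number 4 reached into the sham range. The log2 fold change was -0.30 ± 0.13 (SE), with an unadjusted p of 0.0401 and an edgeR adjusted p of 0.140. Mfn2 over Mfn1 per kilobase was 1.164 to 2.36 in Degs1fl/fl IRI libraries and 1.77 to 2.46 in Degs1fl/fl Sham libraries, overlapping ranges.

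Mief1, which encodes the DRP1 receptor MiD51, was the member with the largest positive fold change. It was at 81.6, 73.8, 60.8 and 102 CPM in Degs1fl/fl IRI libraries and 58.9, 69.7, 58.9 and 61.5 CPM in Degs1fl/fl Sham libraries. All but 1 of the injured libraries were above the sham range. The log2 fold change was 0.35 ± 0.15 (SE), with an unadjusted p of 0.0310 and an edgeR adjusted p of 0.120, and with 1 library left out it was 0.21 to 0.46. Its paralog Mief2, which encodes MiD49, was at 13.1 to 19.8 CPM in Degs1fl/fl IRI and 15.1 to 18.9 CPM in Degs1fl/fl Sham libraries, a log2 fold change of -0.09 ± 0.29.

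The other fission genes had smaller fold changes. Dnm1l averaged 76.3 ± 12.0 CPM in Degs1fl/fl IRI and 83.4 ± 14.1 CPM in Degs1fl/fl Sham libraries, and Fis1, an outer membrane protein linked to fission and to mitophagy, averaged 84.0 ± 21.4 CPM in Degs1fl/fl IRI and 82.6 ± 11.6 CPM in Degs1fl/fl Sham libraries (SD, n = 4 each). Mff, the main DRP1 receptor in mammalian cells, was at 105 CPM in Degs1fl/fl IRI 4 and at 67.1 to 73.1 CPM in the other 3 injured libraries, against 70.4 to 83.7 CPM in Degs1fl/fl Sham libraries. The log2 fold changes of these 3 genes were between -0.13 and 0.05.

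The mitophagy genes had negative, uncalled fold changes. Pink1, the kinase that marks depolarized mitochondria, was at 238, 147, 111 and 261 CPM in Degs1fl/fl IRI libraries and 238, 286, 218 and 219 CPM in Degs1fl/fl Sham libraries. Libraries 2 and 3 of the injured group were below the whole sham range and the others within it, and the log2 fold change was -0.34 ± 0.26 (SE; edgeR adjusted p = 0.399). With 1 library left out it ran from -0.54 (without Degs1fl/fl IRI 4) to -0.16 (without Degs1fl/fl IRI 3). Bnip3l, whose product NIX is a mitophagy receptor, was at 52.2 to 90.2 CPM after IRI and 65.1 to 85.5 CPM after sham. Fundc1, a receptor that acts in hypoxia, was at 15.8 to 22.9 CPM after IRI and 18.4 to 23.1 CPM after sham.

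**Figure D2:**
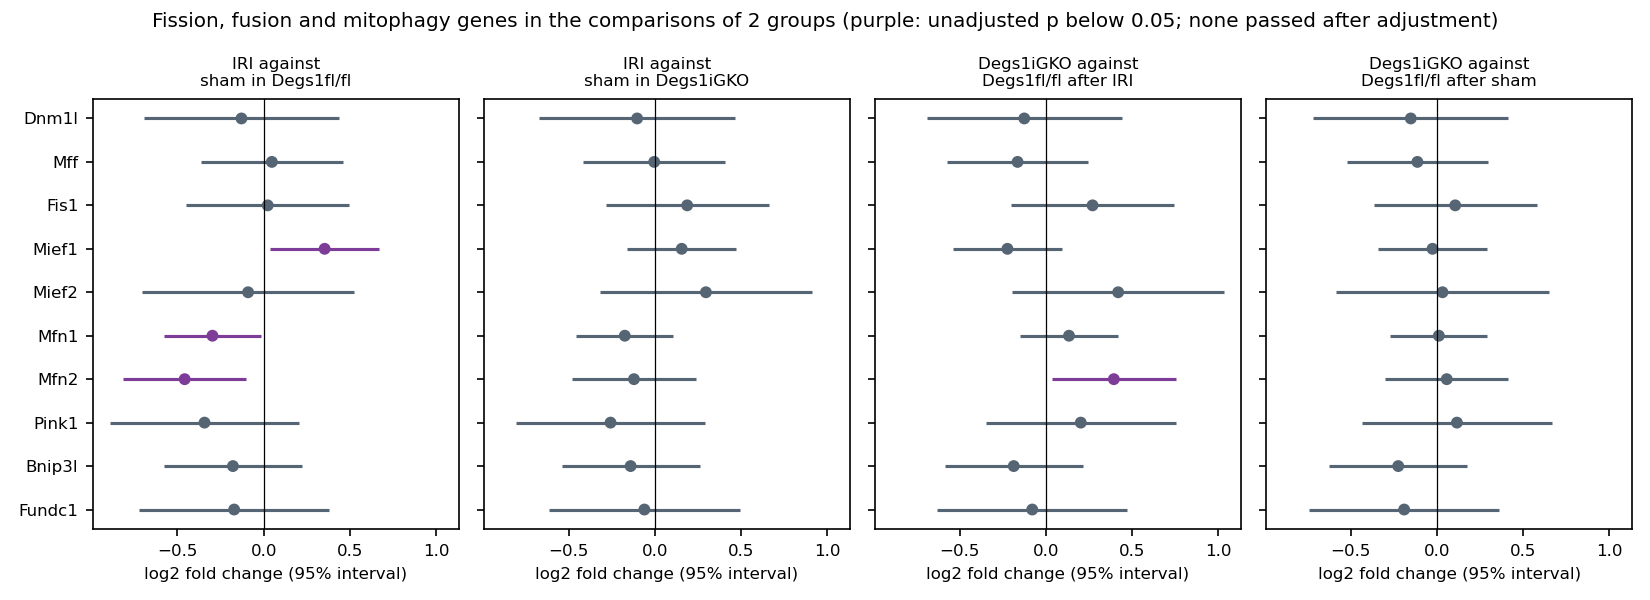
Log2 fold change of each gene on the x axis with its 95% interval, in the 4 comparisons of 2 groups; purple marks an unadjusted p below 0.05. In Degs1fl/fl kidneys Mfn2 (-0.46) and Mfn1 (-0.30) lie left of 0 and Mief1 (0.35) right of it, and none of the 10 passed after adjustment.

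Degs1iGKO kidneys were compared in the same way. For IRI against sham, edgeR called 0 of the 10 genes and 0% of all genes tested at an adjusted p of 0.05. DESeq2 called 0 of the 10 and 0.226% of genes. EdgeR also called 0 of 10 tubular injury markers here, so the absence of calls does not show that the 10 genes were stable. Unadjusted p-values below 0.05 were seen for 0 of the 10 and 6.37% of all genes, and ranges that did not overlap for 0 of the 10 and 5.00%. The fold changes ran from -0.26 (Pink1) to 0.30 (Mief2) on the log2 scale. With all libraries in the fit, Degs1iGKO Sham 4 among them, all 10 of the 95% intervals stayed inside a 2-fold change. Mfn2 was at 212, 175, 223 and 203 CPM in Degs1iGKO IRI libraries and 198, 216, 221 and 249 CPM in Degs1iGKO Sham libraries. The groups overlapped, and the log2 fold change was -0.12 (95% interval -0.48 to 0.24). Mfn1 was at 109, 102, 103 and 112 CPM in Degs1iGKO IRI libraries and 131, 126, 128 and 94.9 CPM in Degs1iGKO Sham libraries. All 4 injured libraries were below Degs1iGKO Sham 1 to 3 and above Degs1iGKO Sham 4.

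Degs1iGKO Sham 4 stood apart from the rest of its group in most of the 10 genes. In that library Dnm1l was at 29.8 CPM, against 88.2 to 93.4 CPM in Degs1iGKO Sham 1 to 3, and Fundc1 was at 7.48 CPM against 17.1 to 24.0 CPM. Mief2 was at 30.1 CPM against 11.3 to 13.8 CPM, Pink1 at 401 against 198 to 221 CPM, and Fis1 at 128 against 73.1 to 80.5 CPM. Thus 3 of the 10 were more than 2-fold from the mean of the other 3 libraries, as were 15.8% of all genes tested. The deviation followed base composition: the 5 genes with the lowest GC content in their longest transcript (Mff, Fundc1, Dnm1l, Bnip3l and Mfn1, 37.3% to 45.9%) were all low in Degs1iGKO Sham 4, and the 5 with the highest (Mief1, Mfn2, Fis1, Mief2 and Pink1, 50.2% to 59.0%) were all high. Pearson's r over the 10 genes was 0.94, as a description of points that share 1 library. Degs1iGKO Sham 4 was not the only library with a high r. It was 0.88 in Degs1fl/fl IRI 1, 0.84 in Degs1fl/fl Sham 2, and 0.61 and 0.78 in Degs1iGKO IRI 3 and 4. In each of these libraries 0 of the 10 genes were more than 2-fold off. In the remaining libraries r was -0.97 to 0.05. Over all tested genes, genes at or under the lower quartile of GC content (44.3%) had a median deviation of -0.75 in this library and those at or over the upper quartile (54.1%) one of 0.61, on the log2 scale. RNA quality values of the libraries were not analysed here.

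**Figure D3:**
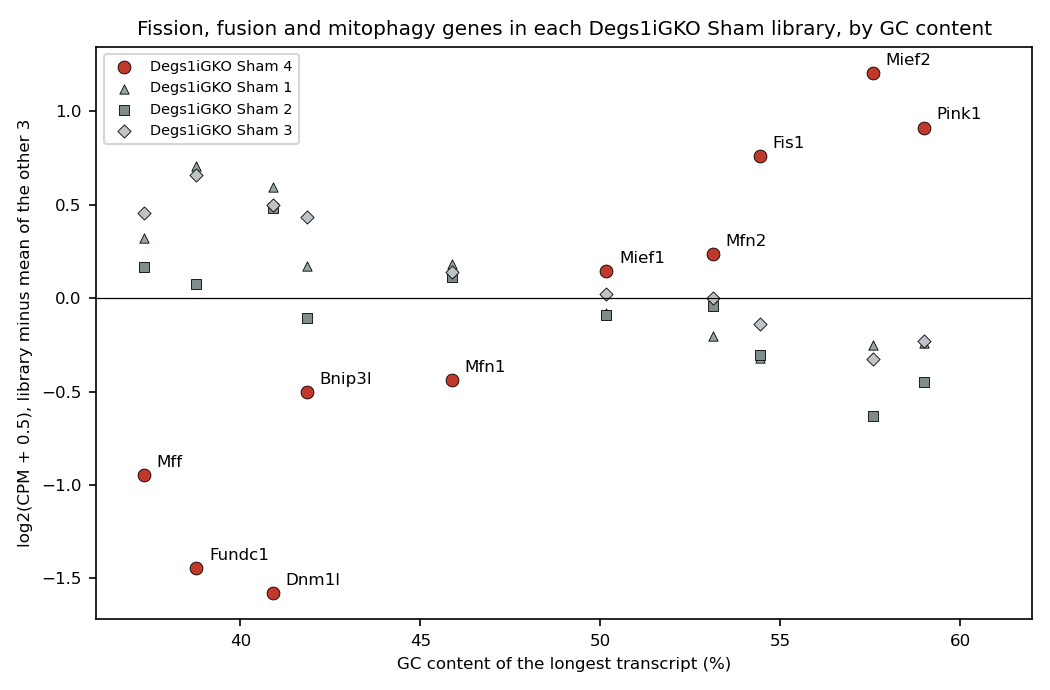
Log2(CPM + 0.5) of each gene in a Degs1iGKO Sham library minus the mean of the other 3 (y axis), against GC content of the longest transcript in percent (x axis); red circles are Degs1iGKO Sham 4, gray symbols the other 3. The red points run from Dnm1l (29.8 CPM) and Fundc1 below 0 at low GC content to Mief2 and Pink1 above 0 at high GC content, and the mean that each gray point is set against includes Degs1iGKO Sham 4.

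Leaving Degs1iGKO Sham 4 out moved several fold changes of IRI against sham in Degs1iGKO kidneys without bringing a call. Mief2 then had 0.73 ± 0.23 in place of 0.30 ± 0.29 (log2, SE), with an edgeR adjusted p of 0.311. That estimate and error do not exclude a 2-fold rise of Mief2. Fis1 had 0.43 ± 0.20 in place of 0.19 ± 0.22, and Dnm1l -0.35 ± 0.17 in place of -0.10 ± 0.27. Mfn1 had -0.26 ± 0.11 in place of -0.17 ± 0.13, and Pink1 turned to 0.05. The lowest adjusted p of the 10 without that library was that of Mief2.

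After sham surgery, no change between genotypes was called in the 10 genes. Comparing Degs1iGKO with Degs1fl/fl, edgeR called 0 of the 10 and 0% of all genes, and DESeq2 0 of the 10 and 0%. Degs1 itself was thus not called. Its ranges did not overlap, at 40.2 to 71.7 CPM in Degs1iGKO Sham and 84.0 to 113 CPM in Degs1fl/fl Sham libraries. The absence of calls therefore does not show that the 10 genes were unaffected. The unadjusted p was below 0.05 for 0 of the 10 and 1.17% of all genes, and the ranges did not overlap for 0 of the 10 and 1.93%. Fold changes were between -0.22 (Bnip3l) and 0.12 (Pink1) on the log2 scale, and the 95% intervals of all 10 stayed inside a 2-fold change in either direction. Without Degs1iGKO Sham 4, Mief2 had -0.39 ± 0.23 in place of 0.03 ± 0.29, Dnm1l had 0.11 in place of -0.15 and Pink1 -0.17 in place of 0.12, all with an edgeR adjusted p of 0.9998.

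After IRI, Mfn2 was the member in which the genotypes lay farthest apart relative to the error. It was at 212, 175, 223 and 203 CPM in Degs1iGKO IRI libraries, against 205, 176, 128 and 110 CPM in Degs1fl/fl IRI libraries. The first pair of Degs1fl/fl IRI libraries lay inside the Degs1iGKO range and the other pair below it. The log2 fold change of Degs1iGKO over Degs1fl/fl was 0.39 ± 0.17 (SE; 95% interval 0.04 to 0.75), with an unadjusted p of 0.0330, an edgeR adjusted p of 0.219 and a DESeq2 adjusted p of 0.146. Without Degs1fl/fl IRI 1 it was 0.56 with an edgeR adjusted p of 0.0289. Leaving that library out also took the calls over all genes to 2495, against 153 with all libraries. With each other library left out in turn Mfn2 did not pass. Beside these values, Slc34a1 was at 2741 to 3817 CPM in Degs1iGKO IRI libraries and 3760, 1450, 729 and 2038 CPM in Degs1fl/fl IRI libraries 1 to 4, and Havcr1 was at 28.0 to 122 CPM in Degs1iGKO IRI and 101 to 1666 CPM in Degs1fl/fl IRI libraries. The summed level of 10 tubular injury markers was 1516 to 3255 CPM in Degs1iGKO IRI and 3678 to 15277 CPM in Degs1fl/fl IRI libraries, and 7 of the 10 fell by edgeR's adjusted p. EdgeR called 0 of the 16 proximal tubule markers in this comparison, with log2 fold changes from -0.58 to 1.29. The part of these marker levels in the Mfn2 difference was not tested.

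Of the 10, edgeR called 0 in this comparison, against 0.851% of all genes, and DESeq2 called 0 against 5.36%. An unadjusted p below 0.05 was seen for 1 of the 10 (Mfn2), against 19.1% of all genes, and ranges that did not overlap for 0 of the 10, against 5.52%. The fold changes lay between -0.22 (Mief1) and 0.42 (Mief2) on the log2 scale. Mief2 was at 14.8, 14.6, 27.6 and 27.0 CPM in Degs1iGKO IRI libraries and 19.8, 16.1, 13.8 and 13.1 CPM in Degs1fl/fl IRI libraries. The Degs1iGKO values fell into a low and a high pair, the low pair inside the Degs1fl/fl range. The high pair, Degs1iGKO IRI 3 and 4, had 3.01% and 2.05% of counts on mitochondrially encoded genes, against 4.51% and 4.03% in 1 and 2. Pearson's r of member deviations with GC content was 0.61 and 0.78 in the high pair and -0.76 and -0.69 in the low pair. Mief2 has a GC content of 57.6%, and its log2 fold change with the GC offset was 0.33 (edgeR adjusted p = 0.313). The part of GC content in the Mief2 values was not tested. The 95% interval of Mief2, -0.20 to 1.03, was the only one of the 10 that reached past a 2-fold change. Per kilobase, Mief2 over Mief1 was 0.683 to 1.12 in Degs1iGKO IRI and 0.385 to 0.725 in Degs1fl/fl IRI libraries, ranges that overlapped.

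Whether the response to IRI depended on genotype was tested by the interaction of genotype and operation. EdgeR called 0 of the 10 and 0% of all genes, and DESeq2 0 of the 10 and 0.639%. An unadjusted p below 0.05 was seen for 0 of the 10 and 11.3% of all genes. For Mfn2 the interaction was 0.34 (log2; 95% interval -0.17 to 0.84, edgeR adjusted p = 0.607), so the IRI difference in Degs1fl/fl kidneys was not shown to differ from that in Degs1iGKO kidneys. Without Degs1fl/fl IRI 1 it was 0.50, with an edgeR adjusted p of 0.196. Mief2 had the widest interval, -0.48 to 1.26, and had 0.81 ± 0.32 (SE; edgeR adjusted p = 0.319) in place of 0.39 ± 0.41 once Degs1iGKO Sham 4 was left out.

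The 99 tested genes of the wider pathway (Gdap1 of the fission list did not pass the filter) held edgeR calls in Degs1fl/fl IRI against sham: 3 rose and 9 fell, 12 of 99 against 15.5% of all genes tested. Their median log2 fold change was -0.07, and DESeq2 called 14 of them, against 17.6% of the genes it gave an adjusted p. Without Degs1fl/fl IRI 1, edgeR called 21, and 4335 of all 18392 genes. In the other 4 tests edgeR called 0 of the 99, against 0.851% of all genes between genotypes after IRI and 0% in the rest. Between genotypes after IRI, 14 of the 99 had an unadjusted edgeR p below 0.05, against 19.1% of all genes, and DESeq2 called 3, against 5.36%. There edgeR called 8 without Degs1fl/fl IRI 1, where it called 2495 of all 18392 genes tested. Without Degs1iGKO Sham 4 it called 1 of the 99 and 235 of all 18339 genes. For IRI against sham in Degs1iGKO kidneys 5 had an unadjusted edgeR p below 0.05, against 6.37% of all genes. For genotype after sham 0 did, against 1.17%, and for the interaction 5, against 11.3%. DESeq2 called 0 of the 99 in each of these, against 0.226%, 0% and 0.639% of genes. For the interaction edgeR called 1 without Degs1fl/fl IRI 1, against 776 of all 18392 genes. The calls fell in fission, fusion, mitophagy, autophagosome, transport and regulator genes. The 12 genes of mitochondrial mass (import receptors, chaperones and matrix enzymes) held 0 calls, with log2 fold changes of -0.32 to 0.18.

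Among fusion and fission genes, 1 of 11 and 1 of 14 passed. Opa1, the GTPase that fuses inner membranes, fell to 121 ± 18.6 CPM in Degs1fl/fl IRI kidneys, against 169 ± 7.57 CPM in Degs1fl/fl Sham kidneys (SD, n = 4 each; log2 -0.49, edgeR adjusted p = 0.0309). Mtfr1, a regulator of fission, fell to 84.97 ± 13.6 CPM against 112 ± 12.9 CPM (log2 -0.40, edgeR adjusted p = 0.0482). The Opa1 call ended without Degs1fl/fl Sham 1, 3 or 4 or Degs1fl/fl IRI 3 or 4 (edgeR adjusted p 0.0641 to 0.0945). The Mtfr1 call ended without any 1 library other than Degs1iGKO Sham 4 and Degs1fl/fl IRI 1 (0.0572 to 0.153).

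Among the 21 other mitophagy genes, 1 rose and 3 fell. Nipsnap1, a matrix protein that can recruit autophagy receptors from damaged mitochondria, fell to 57.1 ± 21.6 CPM in Degs1fl/fl IRI kidneys, against 106 ± 7.20 CPM in Degs1fl/fl Sham kidneys (log2 -0.90, edgeR adjusted p = 0.00929; 0.0515 in a fit of the compared groups alone). Usp8, a deubiquitinase, fell to 117 ± 11.1 CPM against 171 ± 12.5 CPM (log2 -0.54, edgeR adjusted p = 0.00960).

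Sqstm1, the gene of the autophagy receptor p62, went the other way and rose to 897 ± 322 CPM in Degs1fl/fl IRI kidneys, against 468 ± 109 CPM in Degs1fl/fl Sham kidneys (log2 0.94, edgeR adjusted p = 0.0177). Its call ended without Degs1fl/fl Sham 3 or 4 or Degs1fl/fl IRI 4 (edgeR adjusted p 0.0586 to 0.0619). Vdac1, an outer membrane channel, fell by 0.52 on the log2 scale (edgeR adjusted p = 0.0340). Its call ended without Degs1fl/fl Sham 1, 3 or 4 or Degs1fl/fl IRI 2, 3 or 4 (0.0623 to 0.102).

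Among 26 autophagosome genes, 1 rose and 1 fell. Atg7, which activates the ubiquitin-like proteins that build autophagosomes, rose to 46.1 ± 7.79 CPM in Degs1fl/fl IRI kidneys, against 28.8 ± 1.361 CPM in Degs1fl/fl Sham kidneys (log2 0.68, edgeR adjusted p = 0.00455). Gabarapl1, one of those ubiquitin-like proteins, fell to 224 ± 53.0 CPM against 343 ± 37.7 CPM (log2 -0.62, edgeR adjusted p = 0.0172). The Gabarapl1 call ended without Degs1fl/fl Sham 3 or Degs1fl/fl IRI 2 or 3 (edgeR adjusted p 0.0506 to 0.0618). Of 4 genes of mitochondrial transport, Trak2, a motor adaptor, fell to 198 ± 17.3 CPM against 269.8 ± 15.1 CPM (log2 -0.45, edgeR adjusted p = 0.0139; 0.0514 without Degs1fl/fl Sham 4).

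Among 11 transcription factors, coactivators and AMPK subunits known to act on these pathways, 1 rose and 2 fell. Tfe3, a relative of TFEB that drives lysosome and autophagy genes, rose to 52.5 ± 8.74 CPM in Degs1fl/fl IRI kidneys, against 34.5 ± 4.82 CPM in Degs1fl/fl Sham kidneys (log2 0.61, edgeR adjusted p = 0.00888). Ppargc1a, the coactivator of mitochondrial biogenesis, fell to 58.4 ± 16.7 CPM against 126 ± 13.4 CPM (log2 -1.10, edgeR adjusted p = 0.00343). Epas1, the gene of HIF-2α, fell to 202 ± 51.9 CPM against 319 ± 30.0 CPM (log2 -0.66, edgeR adjusted p = 0.0308). Without Degs1fl/fl Sham 2, 3 or 4 or Degs1fl/fl IRI 2 or 3, the Epas1 call ended (edgeR adjusted p 0.0502 to 0.0958). Of the 12 calls, 5 (Usp8, Nipsnap1, Atg7, Tfe3 and Ppargc1a) held with any 1 library left out. With only the 8 libraries of the compared groups in the fit, 8 of the 12 calls ended, among them Nipsnap1 (edgeR adjusted p = 0.0515). The other 7 were Mtfr1, Opa1, Sqstm1, Vdac1, Gabarapl1, Trak2 and Epas1, at adjusted p-values of 0.0523 to 0.114. Without the filter on low counts the calls of Mtfr1, Opa1, Vdac1 and Trak2 ended (0.0713 to 0.137), with the GC offset that of Mtfr1 (0.0708). The calls of Usp8, Atg7, Tfe3 and Ppargc1a held under all of the alternatives run.

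**Figure D4:**
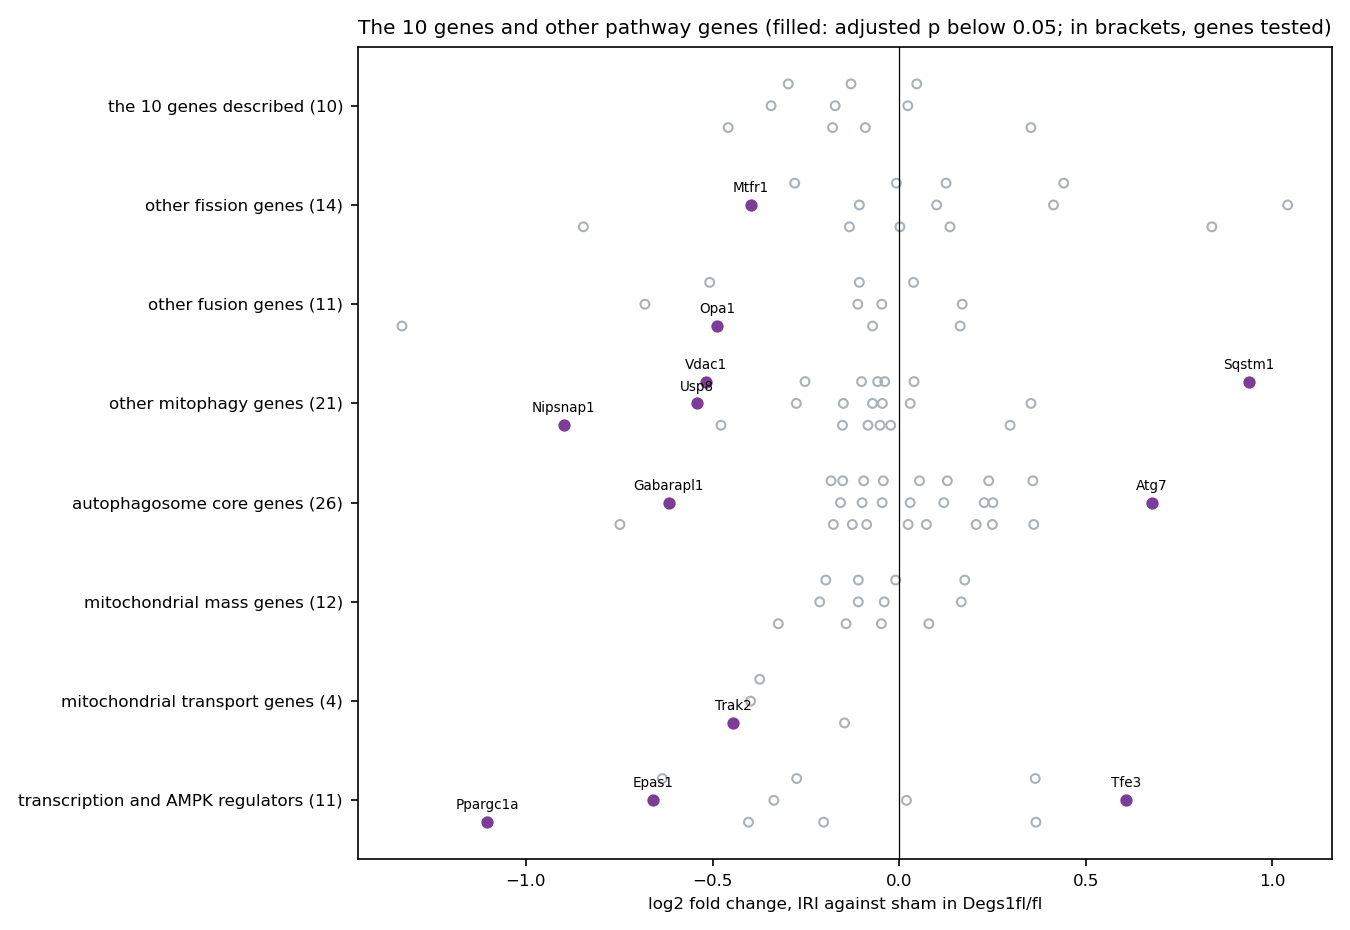
Log2 fold change of IRI against sham in Degs1fl/fl kidneys (x axis) for the 10 genes and 7 lists of other pathway genes (rows, with the number tested in brackets); each point is a gene, and filled, named points passed an adjusted p of 0.05. The 10 genes run from -0.46 to 0.35 with no filled point, while 12 genes of the other lists, from Ppargc1a (-1.10) to Sqstm1 (0.94), are filled.

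Across the 16 libraries the genes most like each member were sought among 11839 tested genes with a mean of at least 5 CPM, by the root mean square difference of centred log2 CPM. Mff lay nearest to Zfp644 (0.07) and Fnip1 (0.07), Dnm1l to Ppp6c (0.08) and Yme1l1 (0.10), and Mfn2 to Mapk14 (0.09) and Bckdk (0.10). Mief1 lay nearest to Ube2d2a (0.10) and Taf1a (0.11), Mfn1 to Itm2b (0.10) and Rcor3 (0.10), and Fis1 to 5031425E22Rik (0.11) and Pex5 (0.11). Fundc1 was nearest to Tmem33 (0.12) and Fastkd2 (0.15), Bnip3l to Ube2q2 (0.14) and Arl14ep (0.14), Pink1 to Hoxd9 (0.15) and Treh (0.15), and Mief2 to Bcam (0.15). Yme1l1, the protease that cuts OPA1, was the only one of these on a pathway list. Among the members themselves, Mff and Bnip3l (0.20), Dnm1l and Mff (0.21) and Fis1 and Mief2 (0.21) were closest, while Dnm1l and Mief2 (0.76) were farthest apart. Libraries shared by all of these genes include Degs1iGKO Sham 4, where genes of like GC content deviated together.

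The spread of the 10 genes between libraries of 1 group was smaller than that of all tested genes except where Degs1iGKO Sham 4 took part. The median coefficient of variation of the 10 was 13.6% in Degs1iGKO IRI, 21.7% in Degs1fl/fl IRI, 29.2% in Degs1iGKO Sham and 10.8% in Degs1fl/fl Sham libraries. Over all tested genes it was 19.6%, 29.0%, 25.3% and 15.9% in the same groups. These differences in spread were not tested. The 10 were set against all tested genes and not against genes of like level, so they are not shown to be unusually stable.

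Small stretches of the exons of 4 members overlap other annotated genes in GENCODE M21: Dnm1l (4.67% of its exon length, Gm49521 on the opposite strand), Mff (2.00%, C430014B12Rik, opposite strand), Mief1 (2.63%, AC140267.1, same strand) and Pink1 (2 microRNA genes on its strand). Reads in these stretches may have been split or dropped, and the strand setting of the counting is not given in the sources used here. Mief1, whose overlap is with a protein-coding gene on its own strand, is the uncertain one among the 3 genes with an unadjusted p below 0.05.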

How the data were processed

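The authors deposited 1 table of raw counts per Ensembl gene for 16 libraries of ribosome-depleted RNA. The submitters' processing notes list STAR 2.7.9a, cutadapt 1.16, DESeq2 1.36.0 and featureCounts 1.6.3, and the build GRCm39; the annotation release and strand setting are not given in the sources used here. Symbols were found for 52073 of 56980 identifiers, exon lengths and transcript GC content came from GENCODE M21 (GRCm38), and the 4907 identifiers with no symbol, with 0.840% to 1.77% of the counts, stayed in as genes. Counts were fitted with edgeR 4.0.16 in R 4.3.3 (filterByExpr by group, TMM scaling, glmQLFit and glmQLFTest, 1 coefficient per group, all 16 libraries, two-sided), with Benjamini-Hochberg adjustment over 17972 genes and a threshold of 0.05. The fit was tested on simulated data. Alternatives were DESeq2 1.42.0, its size factors in edgeR, no filter, only the compared groups, the replicate number as a block, each library left out, and a GC offset added later.

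The members and gene lists were chosen with earlier results of these data known. Named genes are all 10 members, up to 4 called genes per pathway list by smallest p, and the 2 nearest genes of each member; results that need certain genes are not reported here. Depth was 12704273 to 18816343 reads per library. The labels number the replicates without saying that each is a separate mouse, so p-values measure the spread between these samples. All libraries carry 1 batch label, and 0 columns of the table were unused. No 2 libraries of a group were alike within counting noise (chi-square per gene 9.01 to 166 over 24 pairs). No protein sequences were used.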

Additional observations from a re-analysis of the deposited data

Results flagged for a closer look

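Each of the 10 genes was examined in each of the 4 groups for a library far from the other 3, and 6 of 40 combinations held one. The measure was the gap to the nearest library over the whole range, against Dixon's 95% critical value. Chance alone gives such a gap in about 1 of 20 groups of independent, normal values. The share of all tested genes with such a gap was not worked out. Of the 6, 5 were in Degs1iGKO Sham 4, where 15.8% of all genes tested were more than 2-fold from the mean of the other 3 libraries. These 5 share 1 library and are not separate observations. In Degs1iGKO Sham 4, Dnm1l was at 29.8 CPM (other 3 libraries 88.2 to 93.4 CPM), Mfn1 at 94.9 CPM (126 to 131 CPM), Fis1 at 128 CPM (73.1 to 80.5 CPM), Mief2 at 30.1 CPM (11.3 to 13.8 CPM) and Pink1 at 401 CPM (198 to 221 CPM). The sixth was Mff in Degs1fl/fl IRI 4, at 105 CPM (67.1 to 73.1 CPM).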

How the results depend on the processing

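In the 5 comparisons the 10 genes stayed uncalled under DESeq2, its size factors, no filter and the replicate block, which gave 0 members called in each. The compared groups alone gave 0 in the 4 comparisons of 2 groups and cannot be applied to the interaction. With 1 library left out the count was 0 to 1 for IRI against sham in Degs1fl/fl and 0 to 1 for genotype after IRI; both came from Mfn2 without Degs1fl/fl IRI 1. The GC offset gave 1 (Mfn2) for IRI against sham in Degs1fl/fl. Deviations of same-numbered libraries were also compared. Of 24 pairs, 6 correlated above 0.1 (range -0.35 to 0.43), with a median of 0.014, against -0.0055 for pairs of other numbers. Of 16 libraries, 7 matched their own number best. The share expected without pairing was not worked out, so these values cannot settle whether the numbers pair samples. Under the block 2495, 0, 0, 0 and 1 of all genes were called in the 5 comparisons. Of the 12 pathway calls, 2 (Mtfr1 and Vdac1) missed the threshold under the block (edgeR adjusted p 0.0546 and 0.0526).

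Signs turned among uncalled values only. Not all of these were close to 0 as reported, as Pink1 for IRI against sham in Degs1iGKO (-0.26) and Fundc1 for genotype after sham (-0.19) show. For IRI against sham in Degs1iGKO, Mff was 0.022 with DESeq2 size factors, 0.020 with DESeq2, 0.010 with no filter, 0.00066 with the compared groups alone, 0.0029 with the replicate block and 0.039 with the GC offset, and Fundc1 was 0.047 with the GC offset. For genotype after sham, Mief2 was -0.044 with the block and -0.12 with the GC offset, which also gave Mff 0.047 and Pink1 -0.022; after IRI it gave Fundc1 0.014. The cause was not tested.

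With 1 library left out, some uncalled values moved by over 1.5 times with no change of sign, as Pink1 (-0.54 to -0.16), Bnip3l (-0.35 to -0.072) and Mief1 (0.21 to 0.46) for IRI against sham in Degs1fl/fl. Log2 fold changes that changed sign ranged, for IRI against sham in Degs1fl/fl, over -0.12 to 0.12 (Mff) and -0.15 to 0.13 (Fis1). For IRI against sham in Degs1iGKO they ranged over -0.35 to 0.019 (Dnm1l), -0.17 to 0.11 (Mff), -0.37 to 0.047 (Pink1) and -0.30 to 0.11 (Fundc1). For genotype after sham they ranged over -0.27 to 0.11 (Dnm1l), -0.22 to 0.073 (Mff), -0.12 to 0.21 (Fis1), -0.063 to 0.035 (Mief1), -0.39 to 0.19 (Mief2), -0.044 to 0.11 (Mfn1), -0.0055 to 0.11 (Mfn2), -0.17 to 0.23 (Pink1) and -0.36 to 0.065 (Fundc1). For genotype after IRI, Fundc1 ranged over -0.14 to 0.051. For the interaction they ranged over -0.23 to 0.15 (Dnm1l), -0.23 to 0.11 (Mff), -0.013 to 0.40 (Fis1), -0.10 to 0.38 (Pink1), -0.070 to 0.21 (Bnip3l) and -0.14 to 0.28 (Fundc1). With 4 libraries a group, the intervals set the limit: changes well under 2-fold could not be resolved for most of the 10 genes.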
